A study of Mus musculus with 6 samples.

Results

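Guanylate-binding proteins (GBPs) are large GTPases of the dynamin superfamily. The 8 genes described here are the rows of the deposited expression table named Gbp2, Gbp3, Gbp4, Gbp5, Gbp6, Gbp7, Gbp8 and Gbp9, of 34652 genes in all. They were measured by bulk RNA sequencing in macrophages from the cerebrospinal fluid of mice with leptomeningeal metastasis, a model in which LLC-LeptoM cells, a derivative of Lewis lung carcinoma, grow in the membranes around the brain. All mice carried the Cx3cr1CreER and mTmG alleles and were given tamoxifen, which lets Cre under the Cx3cr1 promoter switch a membrane reporter to green fluorescence, and cells were collected on day 12 after inoculation. The first group, labelled dLAM and described as resident macrophages, was sorted as cells with CD45, CD11b, F4/80 and green fluorescence and without Ly6C (3 libraries). The second group, labelled Mono-MΦ, pooled 2 gates without green fluorescence, namely cells with F4/80 and cells with low F4/80 and with Ly6C (3 libraries). Green fluorescence records recombination at a Cx3cr1-driven Cre and not lineage as such, and the labels give neither the timing of tamoxifen, the age of the mice nor the number of mice behind a library.

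GBP genes are induced by interferon gamma: the cytokine binds the receptor chains Ifngr1 and Ifngr2, the kinases Jak1 and Jak2 pass the signal on, and transcription factors, Irf1 among them, drive transcription. In infected macrophages GBP proteins assemble on bacteria and on the vacuoles of parasites such as Toxoplasma, and they help caspase-11 (gene Casp4) and other inflammasomes to detect microbial products. The mouse genes lie in 2 clusters. On genome build mm10 (GENCODE M21 annotation), Gbp5 (142493978 to 142522344), Gbp7 (142530342 to 142550149), Gbp3 (142560026 to 142573209) and Gbp2 (142620602 to 142638008) stand in this order on the plus strand of chromosome 3. Gbp8 (105014150 to 105139540), Gbp9 (105077630 to 105139539), Gbp4 (105115767 to 105139586) and Gbp6 (105270702 to 105293698) lie on the minus strand of chromosome 5, where the models of Gbp8, Gbp9 and Gbp4 overlap and share 60 or 61 exonic bases at their 5′ end.

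Promoter sequences are shown because the 8 genes had the same direction of difference and because the family is known for its interferon elements. The RefSeq promoter table (GRCm38.p6, the assembly of mm10) held windows from 250 bases before to 50 bases after the start of Gbp2, Gbp3, Gbp5 and Gbp7, which is 4 of the 8 members. Capitals mark matches to the interferon-stimulated response element (ISRE), searched on both strands as TTTC, any 2 bases and TTTC again, and to the gamma-activated site (GAS), searched as TTCNNNGAA, which reads the same on both strands.
Gbp2, chr3:142620413-142620712, plus strand: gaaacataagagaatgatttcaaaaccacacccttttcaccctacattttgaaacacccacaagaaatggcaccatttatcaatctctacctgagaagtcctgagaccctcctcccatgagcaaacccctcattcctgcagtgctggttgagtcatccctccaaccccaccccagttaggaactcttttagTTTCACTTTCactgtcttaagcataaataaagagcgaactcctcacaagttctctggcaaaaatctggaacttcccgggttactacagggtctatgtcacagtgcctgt
Gbp3, chr3:142559794-142560093, plus strand: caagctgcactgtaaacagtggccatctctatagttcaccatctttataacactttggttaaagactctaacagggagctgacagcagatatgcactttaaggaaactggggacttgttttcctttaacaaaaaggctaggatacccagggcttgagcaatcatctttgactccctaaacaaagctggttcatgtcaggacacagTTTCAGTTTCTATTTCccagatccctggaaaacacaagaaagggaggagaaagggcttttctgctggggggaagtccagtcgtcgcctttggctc
Gbp7, chr3:142530086-142530385, plus strand: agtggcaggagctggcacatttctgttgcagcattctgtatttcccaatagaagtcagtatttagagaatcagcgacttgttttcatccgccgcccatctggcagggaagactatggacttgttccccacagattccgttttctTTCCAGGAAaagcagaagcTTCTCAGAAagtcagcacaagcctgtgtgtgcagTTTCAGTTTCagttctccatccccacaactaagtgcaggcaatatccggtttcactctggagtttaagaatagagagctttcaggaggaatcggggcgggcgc
Gbp5, chr3:142496684-142496983, plus strand: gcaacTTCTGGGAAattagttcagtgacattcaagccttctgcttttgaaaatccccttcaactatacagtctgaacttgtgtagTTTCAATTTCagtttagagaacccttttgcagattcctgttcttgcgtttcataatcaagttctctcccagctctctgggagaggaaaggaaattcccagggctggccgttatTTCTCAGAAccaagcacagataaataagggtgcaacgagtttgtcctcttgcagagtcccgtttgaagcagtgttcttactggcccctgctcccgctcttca
The ISRE letters occurred in each of these 4 windows, at positions -59 to -50 from the start in Gbp2, -53 to -44 in Gbp7 and -165 to -156 in Gbp5. In Gbp3 a pair of overlapping matches lay at -45 to -36 and -39 to -30. A second Gbp3 window, at an alternative start, held no match to either motif. Over all 32851 windows of the table, 3.44% held the ISRE letters and 8.30% the GAS letters. GAS letters were found in the windows of Gbp5 and Gbp7, at 2 places each. These are matches of letters and not shown binding sites.

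All 8 GBP genes were higher in the resident macrophage libraries, by 1.74-fold (Gbp7) to 8.51-fold (Gbp8) as ratios of mean FPKM (fragments scaled to gene length and library size). Each passed at an adjusted p under 0.05 (limma on log2(FPKM + 1) across 11317 genes). Gbp8 met the filter of 1 FPKM in 3 libraries only through its dLAM libraries. In the same fit 19.9% of all tested genes were higher, 10.6% were lower and 30.5% passed in either direction. Higher genes made up 65.1% of those called, and 51.9% after scaling by median of ratios. The 3 dLAM libraries lay above the 3 Mono-MΦ libraries for each of the 8 genes, as they did for 29.3% of the genes tested, and 46.2% of genes were without overlap in either direction. The median log2 fold change was 0.99 over the 8 genes and 0.06 over all tested genes. Since an RNA measured in sorted bulk cells mixes what each cell holds with which cells were sorted, more cells of a high-expressing type and more RNA per cell cannot be told apart here.

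The libraries held an estimated 1.23e+07 to 1.70e+07 fragments, and between 10281 and 11470 genes reached 1 FPKM. Of 7 genes that define macrophages, 3 were higher in dLAM (Adgre1, Csf1r and Mertk), and Csf1r, the receptor for colony-stimulating factor 1, was the most abundant at 219 to 276 against 104 to 147 FPKM. Itgam, which encodes CD11b, was low in every library, at 1.96 to 3.12 FPKM. Marker genes that reached 1 FPKM in dLAM libraries alone were tested only because they were high there, so calls are counted here over the genes that reached it in both groups. Here and below this means at least 1 library of each group, so such a gene can still have met the filter through dLAM. Of 12 border macrophage markers 8 did so and all 8 were higher in dLAM, C1qb being the most abundant. For every marker list here, the shares over all tested genes were 19.9% higher and 10.6% lower. Of 11 classical monocyte markers 10 were lower. S100a9, the most abundant monocyte marker, was at 559 to 715 against 754 to 4454 FPKM and did not pass (limma adjusted p = 0.058). Several marker lists of other cells differed in the same direction as the GBP genes. The 16 T cell markers had a summed level of 236 to 298 FPKM in dLAM against 8.26 to 40.7 in Mono-MΦ, and the 12 that reached 1 FPKM in both groups were all higher. The 10 natural killer cell markers summed to 47.8 to 60.8 against 4.05 to 12.7 FPKM (4 of 4 higher). The 12 dendritic cell markers summed to 179 to 257 against 19.8 to 22.9 FPKM (4 of 5 higher), and the 7 B cell markers to 60.1 to 329 against 13.9 to 36.2 FPKM (2 of 2 higher). Of 8 neutrophil markers 4 were lower in dLAM (493 to 717 against 976 to 5380 FPKM summed). Carcinoma markers summed to 26.9 to 31.6 against 1.74 to 2.92 FPKM, mostly Cdh1. Cdh1 was the 1 gene of the list at 1 FPKM in both groups, and it was higher. Epcam, at 4.7 to 7.5 FPKM in dLAM against 0.0716 to 0.2789 in Mono-MΦ, did not overlap between the groups. Nor did Krt18, at 1.103 to 1.69 against 0.2098 to 0.5217 FPKM. Epcam and Krt18 reached 1 FPKM in dLAM alone, so their values are a description. Krt8 overlapped between the groups, and Krt19 was listed at 0 in 5 libraries. Endothelial markers summed to 6.09 to 7.26 against 4.02 to 5.24 FPKM (0 of 2 called by limma, and 0 at an unadjusted p under 0.05). Those called by neither measure were Pecam1 and Flt1, whose ranges overlapped. Kdr, which reached 1 FPKM in dLAM alone, was at 1.002 to 1.391 FPKM there and 0.08115 to 0.2376 in Mono-MΦ. Cdh5, which did not meet the filter, was at 0.6783 to 1.212 against 0.2565 to 0.4716 FPKM. The values of Kdr and Cdh5 are a description. Cldn5 and Tek were at or near 0. Meningeal fibroblast markers summed to 3.86 to 5.84 against 0.327 to 1.09 FPKM, and none reached 1 FPKM in both groups. T, natural killer and dendritic cells can express GBP genes too, and the part these cells had in the values below was not tested.

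Gbp2, whose protein is carried to membranes by a lipid anchor and is recruited to parasite vacuoles, was the most abundant member in every library. It stood at 128, 126 and 130 FPKM in dLAM libraries 1, 2 and 3 and at 83.1, 82.2 and 53.6 in Mono-MΦ libraries 1, 2 and 3. The dLAM libraries were nearly level (coefficient of variation 1.54%), while Mono-MΦ library 3 was lower than the other two of its group. The means were 128 ± 1.97 against 73.0 ± 16.8 FPKM (SD, n = 3). On the log2 scale the difference was 0.83 with a 95% interval of 0.43 to 1.23 and a limma adjusted p of 0.0096, the largest among the 8 genes.

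Gbp3, which takes part in inflammasome responses, was the second most abundant member. Its values were 41.1, 44.7 and 35.9 FPKM in dLAM and 26.1, 17.7 and 19.9 in Mono-MΦ. The lowest dLAM library exceeded the highest Mono-MΦ library 1.37-fold, the narrowest separation in the family. The log2 fold change was 0.91 (95% interval 0.55 to 1.28, limma adjusted p = 0.0039).

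Gbp7, which has been linked to assembly of the phagocyte oxidase, varied least of the members within Mono-MΦ and, after Gbp2, within dLAM. It was at 22.3, 21.6 and 23.6 FPKM in dLAM and 12.4, 12.9 and 13.4 in Mono-MΦ, with coefficients of variation of 4.32% and 4.03%. Its log2 fold change of 0.75 was the smallest of the 8 (95% interval 0.55 to 0.96), and its limma adjusted p was 0.00074. A processed pseudogene, Gm43802, overlaps 11.3% of the exonic length of Gbp7 and shares 8.77% of its windows of 150 bases, the length of 1 sequencing read, so its level is uncertain to that extent.

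Gbp5, which promotes assembly of the Nlrp3 inflammasome, stood at 16.4, 16.2 and 14.9 FPKM in dLAM and 8.96, 8.82 and 6.80 in Mono-MΦ. Here again Mono-MΦ library 3 was the lowest. The ratio of means was 1.93 and the log2 fold change 0.88 (95% interval 0.59 to 1.17, limma adjusted p = 0.0016).

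The 4 genes on chromosome 5 had larger log2 fold changes than the 4 on chromosome 3, a contrast between clusters that was not tested. Gbp4, reported as a negative regulator of Irf7, was at 11.4, 15.1 and 16.9 FPKM in dLAM and 3.98, 5.10 and 3.91 in Mono-MΦ. The groups were far apart, the lowest dLAM library being 2.24 times the highest Mono-MΦ library. The means of 14.5 ± 2.78 and 4.33 ± 0.668 FPKM (SD, n = 3) differed 3.34-fold, with a log2 fold change of 1.53 (95% interval 1.15 to 1.91, limma adjusted p = 0.00049).

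Gbp9, one of the GBPs seen at the Toxoplasma vacuole, showed the smallest difference on chromosome 5. Its levels were 14.7, 13.8 and 16.5 FPKM in dLAM and 5.03, 8.30 and 6.84 in Mono-MΦ. The log2 fold change was 1.07 (95% interval 0.68 to 1.46, limma adjusted p = 0.0026), and the ratio of means was 2.24.

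Gbp6, also seen at the Toxoplasma vacuole, was among the least abundant members and varied most within the dLAM group. It was at 4.45, 10.6 and 6.63 FPKM in dLAM (coefficient of variation 43.2%) and at 1.05, 1.73 and 1.96 in Mono-MΦ. Library 2 was the highest of the dLAM group. The ratio of means was 4.57 and the log2 fold change 1.62 (95% interval 0.97 to 2.27, limma adjusted p = 0.0041). The coding sequence of Gbp6 is 98.4% identical to that of its neighbour Gbp10, and 59.1% of its 150-base windows also occur in Gbp10 or in the overlapping model Gm43302, so how reads were divided among them decides its level. Gbp10 was listed at 0.447, 0.922 and 0.552 FPKM in dLAM and 0.104, 0.134 and 0.0278 in Mono-MΦ, and Gbp6 and Gbp10 added up to 4.90 to 11.5 against 1.15 to 1.99 FPKM, again without overlap.

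Gbp8 had the largest difference of the family. It was at 6.73, 12.3 and 9.53 FPKM in dLAM and at 0.781, 0.878 and 1.70 in Mono-MΦ, where 1 of the 3 libraries reached 1 FPKM. By the estimated depth these levels correspond to 343 to 522 fragments in dLAM and 37, 43 and 100 in Mono-MΦ, so the low group rests on few fragments. The means were 9.53 ± 2.81 and 1.12 ± 0.505 FPKM (SD, n = 3), an 8.51-fold ratio. On the log2(FPKM + 1) scale, which compresses low values, the difference was 2.30 (95% interval 1.74 to 2.86, limma adjusted p = 0.00044), and 1.38% of all tested genes had a larger one. With a pseudocount of 0.1 it was 3.01. Because Gbp8 met the filter on low values through dLAM, the fit without a filter is given too, with a limma adjusted p of 0.0028.

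**Figure D1:**
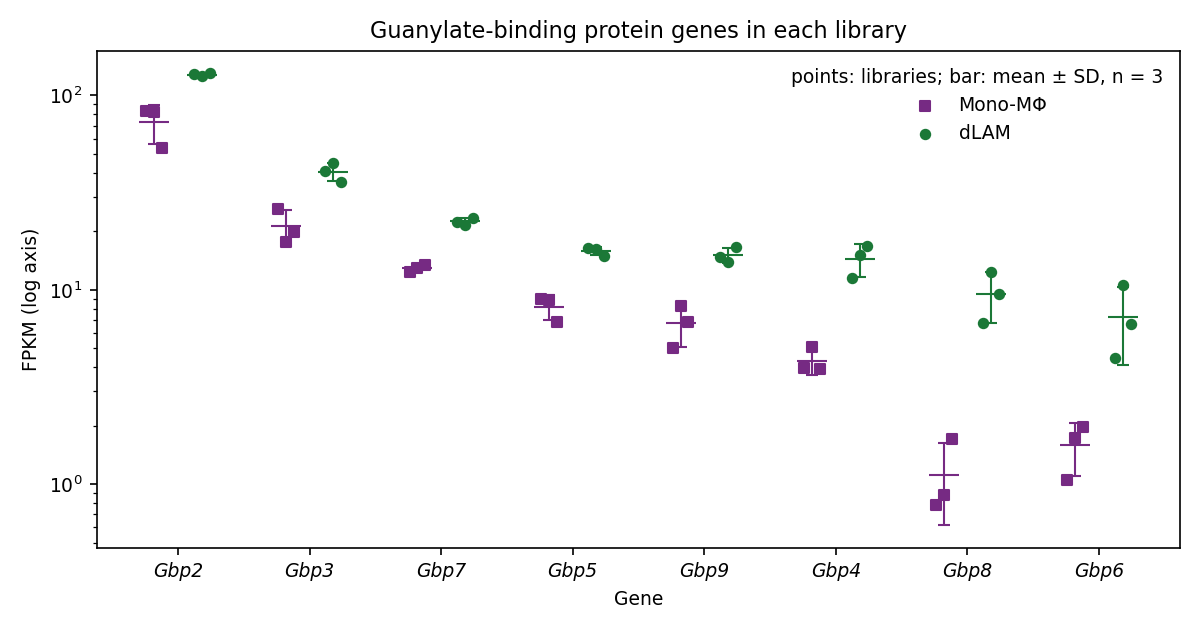
FPKM of the 8 GBP genes on a log axis, ordered by dLAM level, with 1 point per library and a bar for the mean ± SD of 3 libraries. For each gene the 3 dLAM libraries lie above the 3 Mono-MΦ libraries, and the ratio of means is 1.74 for Gbp7 and 8.51 for Gbp8.

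Comparing genes by FPKM depends on the gene lengths used for scaling, which are not given. In GENCODE M21 the exonic lengths of the 8 genes ran from 2516 bases (Gbp2) to 7494 bases (Gbp4). Ordered by FPKM, Gbp2, Gbp3 and Gbp7 led in this order in each of the 6 libraries. Below them in dLAM, Gbp5 (14.9 to 16.4 FPKM), Gbp9 (13.8 to 16.5) and Gbp4 (11.4 to 16.9) overlapped, and their order changed from library to library. In Mono-MΦ the ranges of Gbp5 (6.80 to 8.96) and Gbp9 (5.03 to 8.30) overlapped, and Gbp4 (3.91 to 5.10) was below Gbp9 in every library. Gbp6 and Gbp8 came last in both groups and changed places. In each dLAM library Gbp8 was the higher of the pair, with a ratio of Gbp6 to Gbp8 of 0.662, 0.860 and 0.696. In each Mono-MΦ library Gbp6 was the higher, with ratios of 1.35, 1.97 and 1.15. The place of Gbp6 in this order depends on how reads shared with Gbp10 and Gm43302 were divided, which is not known.

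Summed over the 8 genes, GBP RNA amounted to 246, 260 and 254 FPKM in dLAM and 141, 138 and 108 FPKM in Mono-MΦ. Gbp2 alone made up 48.4% to 52.3% of the sum in dLAM and 49.6% to 59.7% in Mono-MΦ, ranges that overlap. The 4 genes of chromosome 5 made up 15.2%, 19.9% and 19.5% in dLAM and 7.67%, 11.6% and 13.3% in Mono-MΦ, ranges that do not. As shares of summed FPKM, these values also depend on the gene lengths used. The ratio of group means ran from 2.24 to 8.51 among these 4 genes and from 1.74 to 1.93 among the 4 of chromosome 3. Among the 4 members on chromosome 5, coding sequences were 89.6% (Gbp4 and Gbp9) to 92.9% (Gbp4 and Gbp8) identical, and among the 4 on chromosome 3 they were 60.3% (Gbp5 and Gbp7) to 78.3% (Gbp3 and Gbp7) identical. Outside Gbp6 and Gbp7, at most 0.0254% of a member's 150-base windows occurred in the transcripts of another gene.

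**Figure D2:**
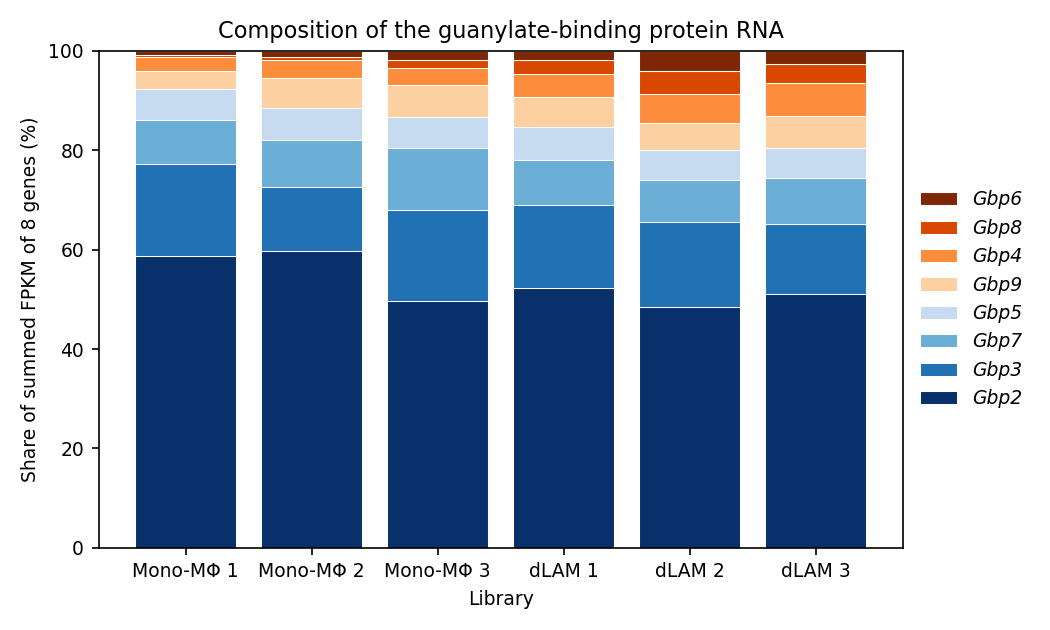
Share of each gene in the summed FPKM of the 8 GBP genes, with 1 bar per library and blue for genes of chromosome 3, orange and brown for genes of chromosome 5. Chromosome 5 genes take 15.2% to 19.9% of a dLAM bar and 7.67% to 13.3% of a Mono-MΦ bar.

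Libraries of a group did not rank alike for all members. Within dLAM, library 2 was highest for Gbp3, Gbp6 and Gbp8 and library 3 for Gbp2, Gbp4, Gbp7 and Gbp9. Within Mono-MΦ, library 3 was lowest for Gbp2, Gbp4 and Gbp5 but highest for Gbp6, Gbp7 and Gbp8. The gene nearest to Gbp8 by root mean square distance between centred log2(FPKM + 1) profiles over the 6 libraries was Zbtb46, a transcription factor gene of conventional dendritic cells, at a distance of 0.137. Zbtb46 was at 3.30, 6.11 and 4.75 FPKM in dLAM and 0.0824, 0.0401 and 0.199 in Mono-MΦ, with the same order of libraries within dLAM as Gbp8. That order rests on 3 libraries and was not tested, and the same libraries picked Zbtb46 as the nearest gene, so the match is not independent of that choice. For Gbp4 the nearest gene was Traf1, an adaptor of tumor necrosis factor receptors (distance 0.103), for Gbp9 the T cell transcription factor gene Lef1 (0.024), for Gbp3 the chaperone gene Hsp90ab1 (0.039), for Gbp5 Mier2 (0.035), for Gbp2 Zfp219 (0.058), for Gbp7 the pseudouridine synthase gene Pus7 (0.048) and for Gbp6 Gm28112 (0.108). Nearest to the mean profile of the 8 members were Ccdc102a, Gcsam, Traj37, Podnl1 and Arhgap18, at distances of 0.043 to 0.065. No other GBP gene was the nearest to any member. The closest pair within the family was Gbp2 and Gbp5, at 0.107. With 6 libraries in 2 groups, many genes with a difference of similar size come close by this measure. Zbtb46, Lef1, Pus7, Gm28112, Gcsam, Traj37 and Podnl1 reached 1 FPKM in dLAM alone. They entered the search only through dLAM, so their nearness is a description.

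The second family of interferon gamma-induced GTPases, the immunity-related GTPases (IRGs), passed the threshold in part. Of the 8 IRG genes that reached 1 FPKM in both groups 5 were higher in dLAM, with a median log2 fold change of 0.79. The call of Igtp was lost without dLAM library 1 (limma adjusted p = 0.081) or without dLAM library 2 (0.076). Among all tested genes 19.9% were higher. Iigp1 (Irga6), which loads onto parasite vacuoles, was at 20.5 to 24.3 FPKM in dLAM and 2.64, 2.19 and 3.50 in Mono-MΦ, a log2 fold change of 2.61. Gm4951 was higher by 2.42, but Mono-MΦ library 2 alone of its group reached 1 FPKM (1.13), so it met the filter through dLAM. F830016B08Rik was at 2.34, 4.63 and 3.83 FPKM in dLAM and 0.0443, 0.216 and 0.267 in Mono-MΦ, and since it entered the fit only through dLAM its difference is given as a description. Irgm1, Irgm2 and Ifi47 were named after their values were seen. Their log2 fold changes were 0.22, 0.33 and 0.28, and none passed (limma adjusted p = 0.14, 0.073 and 0.093). The 95% intervals were 0.05 to 0.61 for Irgm2 and 0.03 to 0.54 for Ifi47. Over the 9 tested IRG genes, F830016B08Rik and Gm4951 included, 8 were higher by limma at an unadjusted p under 0.05. The share of all tested genes at that looser threshold is not given here, so this count has no background beside it. The smallest GBP difference, that of Gbp7, had a 95% interval of 0.55 to 0.96. That of Irgm1, a regulatory IRG, was -0.01 to 0.46, and the difference between genes was not tested.

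**Figure D3:**
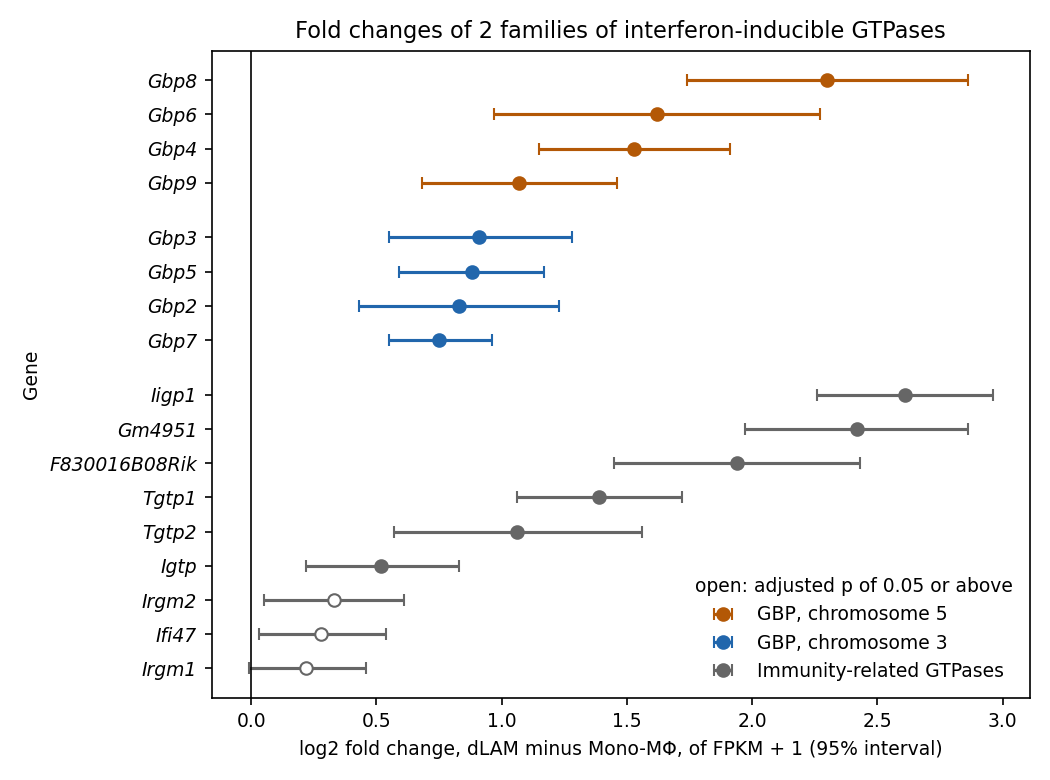
Log2 fold changes of FPKM + 1, dLAM minus Mono-MΦ, with 95% intervals, for the GBP genes by chromosome and for 9 IRG genes, F830016B08Rik included. All 8 GBP genes pass at an adjusted p under 0.05 (filled), whereas Irgm1, Irgm2 and Ifi47 (open) do not.

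Upstream of the GBPs, the ligand was called higher, though it met the filter through its dLAM libraries, and the receptor chains were not called. Ifng, which encodes interferon gamma and is made mainly by T and natural killer cells, was at 9.69, 4.44 and 14.2 FPKM in dLAM and 0.0605, 1.65 and 0.876 in Mono-MΦ. Mono-MΦ library 2 alone of its group reached 1 FPKM. The dLAM libraries were all above the Mono-MΦ libraries, and the log2 fold change was 2.46 (95% interval 1.44 to 3.49, limma adjusted p = 0.0047). In these libraries T cell markers were higher as well, as given above, and their part was not tested. Ifngr1 was at 147 to 163 against 131 to 136 FPKM (log2 fold change 0.20, adjusted p = 0.17; with quantile normalization 0.35, adjusted p = 0.021). Ifngr2 was at 51.1 to 54.6 against 53.4 to 60.4 FPKM (-0.09) and Jak1 at 46.7 to 55.2 against 43.3 to 48.8 FPKM (0.13), and neither passed. Jak2 was higher by 0.55 (limma adjusted p = 0.040), a call that ended without any of 5 libraries, namely each dLAM library and Mono-MΦ library 1 or 3 (adjusted p = 0.073 to 0.13).

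Among the transcription factors that act on GBP genes, Irf1 missed the threshold. Irf1 was at 38.3, 44.7 and 47.4 against 30.6, 37.9 and 25.4 FPKM, with a log2 fold change of 0.47 (95% interval 0.11 to 0.84, limma adjusted p = 0.057; without Mono-MΦ library 2, 0.017). Its lowest dLAM library was just above its highest Mono-MΦ library. Socs1, the feedback inhibitor of the pathway, was higher by 0.88, with 16.5 to 18.4 against 8.38 to 10.3 FPKM. In all, 4 of 10 genes of the receptor pathway were higher, with a median of 0.43, and 2 when any 1 dLAM library or Mono-MΦ library 3 was left out. Among all tested genes the share higher was 19.9%.

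On the list of other targets of interferon gamma, 13 of the 21 genes that reached 1 FPKM in both groups were higher in dLAM (median log2 fold change 0.69), and a further 2, Serpina3f and Batf2, entered the fit only through dLAM. Over all 23 tested genes of the list 15 were higher, and 12 after median-of-ratios scaling. The calls of B2m, Psmb9 and Wars were each lost without dLAM library 1 and without dLAM library 2. For this list and the next, the shares over all tested genes were 19.9% higher and 10.6% lower. The largest differences were those of Ciita, the master regulator of MHC class II, at 3.39, Serpina3g at 2.77 and the chemokine gene Cxcl9 at 2.61. Of 28 tested genes chosen as targets of type I interferon, 0 were higher by limma, and 0 at an unadjusted p under 0.05, while 3 were higher without Mono-MΦ library 3. Their median was 0.11, and 1, the nucleotide kinase gene Cmpk2, fell by 0.97, a call that ended when any 1 dLAM library or Mono-MΦ library 1 or 3 was left out. The difference between the GBP genes and these lists was not tested.

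**Figure D4:**
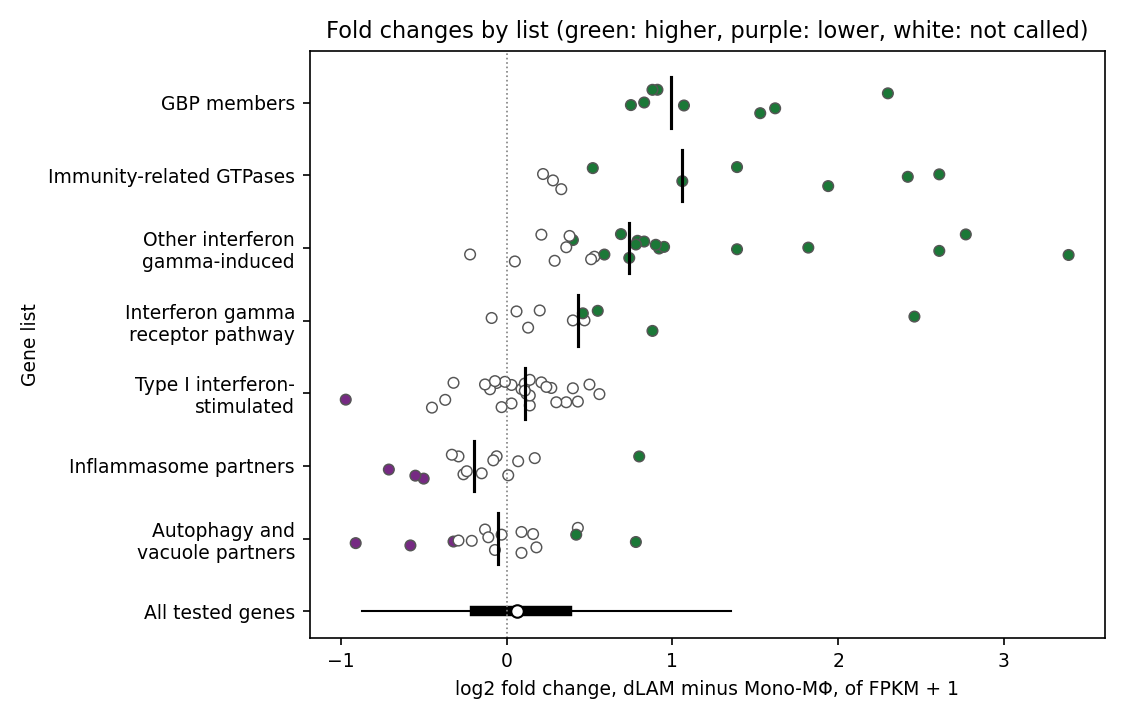
Log2 fold changes of FPKM + 1, dLAM minus Mono-MΦ, for the tested genes of 7 lists (points, with the median of all tested genes of the list as a line, those at 1 FPKM in dLAM alone included) and for all tested genes (circle at the median, thick bar from the 25th to the 75th percentile, thin bar from the 5th to the 95th). The GBP genes lie between 0.75 and 2.30, and the type I interferon genes center on 0.11.

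Genes whose products act with GBP proteins were called in both directions or missed the threshold. Casp4, the sensor of cytosolic lipopolysaccharide, was at 7.11, 6.57 and 7.89 FPKM in dLAM and 8.62, 9.60 and 9.74 in Mono-MΦ, with a log2 fold change of -0.33 (95% interval -0.59 to -0.08, limma adjusted p = 0.055; 0.016 with median-of-ratios scaling). Gsdmd, the pore protein cut by Casp4, was at 55.5 to 66.1 against 56.9 to 61.3 FPKM, overlapping ranges, with a log2 fold change of 0.07 (limma adjusted p = 0.64; -0.04 with median-of-ratios scaling). Of 14 inflammasome and pyroptosis genes, 1 was higher and 3 were lower (median -0.19). The count of lower genes was 2 without a filter or with a replicate block, 6 after median-of-ratios scaling and 5 after quantile normalization. For this list and the next, the shares over all tested genes were 19.9% higher and 10.6% lower. The sensor gene Nlrp1b was higher by 0.80, whereas Naip5 and Naip2, sensors of bacterial flagellin and secretion systems, fell by 0.71 and 0.55. Il18 fell by 0.50, a call lost when any library other than dLAM library 1 was left out (limma adjusted p = 0.062 to 0.12). Of 16 genes of the autophagy conjugation machinery, which directs GBPs to vacuoles, and of vacuole recognition, 2 were higher and 3 lower (median -0.05; 1 lower without dLAM library 1, and 1 higher without dLAM library 1 or 2). Lgals3 (galectin-3), which binds the inside of broken vacuoles, fell by 0.91 and Atg7, the activating enzyme of the conjugation system, by 0.58 (without dLAM library 1 its limma adjusted p was 0.051), while Gabarapl1 was higher by 0.78.

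Enzymes that attach and trim the lipid anchor of some GBPs showed 1 gene higher of 5 tested, the protease gene Rce1 by 0.57, a call lost without any of 5 libraries (each but Mono-MΦ library 3). Among 11 other tested large GTPases of the dynamin superfamily, 2 were higher, Ehd4 by 0.75 and Ehd1 by 0.45, and 1, Atl2, was lower by 0.44, with a median of 0.07. The counts of higher genes on both lists, and of lower genes here, are near the shares over all tested genes, 19.9% higher and 10.6% lower. The Atl2 call was lost when any library other than Mono-MΦ library 1 was left out, and that of Ehd4 without dLAM library 2 (limma adjusted p = 0.051). The interferon-induced dynamin-like genes Mx1 and Mx2, also named after their values were seen, missed the threshold with values of -0.06 and -0.32 on the log2 scale.

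The 8 GBP calls did not depend on 1 library or on the settings tried. Across 18 alternatives, among them leaving out each library, each of the 8 genes was higher and passed, except that Gbp6 could not be tested at a minimum of 5 FPKM. The largest adjusted p was 0.043, for Gbp2 in the 4 libraries with less Y-linked RNA. Within the same 4 libraries, Gbp8 had a log2 fold change of 2.21 (limma adjusted p = 0.011).

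**Figure D5:**
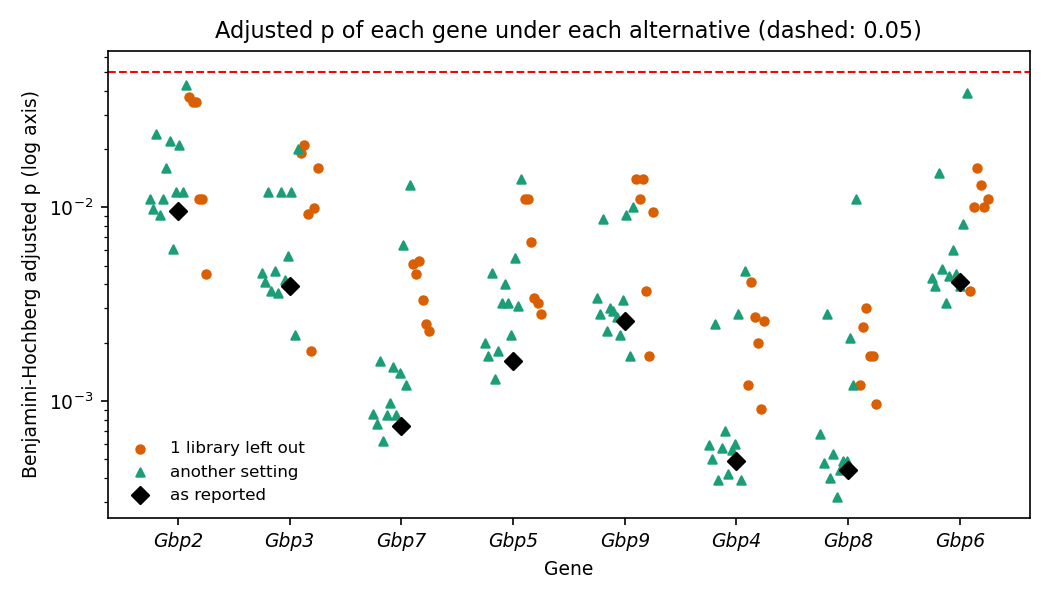
Benjamini-Hochberg adjusted p on a log axis for each GBP gene as reported (diamonds), with 1 library left out (circles) and under the other settings (triangles). All points lie under the dashed line at 0.05, the highest being Gbp2 at 0.043.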

How the data were processed

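The authors' deposited table gives FPKM per gene in 1 column per library, and each of the 6 columns matched 1 sample title. Per the submitters' processing notes, the tools were FastQC, HISAT2 and featureCounts and the genome build was mm10. Not given in the sources used here were versions, annotation, strand handling and the treatment of reads with several positions. Per the labels' protocols, total RNA of sorted cells was sequenced as paired reads on a NovaSeq instrument. The labels do not tie libraries to separate animals. The p-values therefore measure only how much these libraries vary, which may be technical.

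Count models do not apply to FPKM. Genes with at least 1 FPKM in at least 3 libraries (11317) were transformed as log2(FPKM + 1) and fitted with limma 3.58.1 (R 4.3.3), with a group term, a mean-variance trend and Benjamini-Hochberg adjustment over all of them. Fold changes are dLAM minus Mono-MΦ. The fit was tested on simulated data. Depth was estimated from the steps of 1 fragment in low values and GENCODE M21 exon lengths. Between 40.9% and 44.7% of values under 20 fragments came out whole within 0.02, so counts were not recovered and fragment numbers are estimates of counting precision only. Identities came from global alignments of coding sequences (Biopython 1.88). Plots used matplotlib 3.10.9.

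The members and lists were chosen with earlier results of these data known. The text names all 8 members, the genes of each pathway list with the 3 largest called changes, core pathway genes, the most abundant markers and the nearest profiles, except that some genes of these lists are not reported here. Alternatives covered pseudocounts, filters, scalings, the trend, a replicate block, Y-linked RNA and each library left out.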

Additional observations from a re-analysis of the deposited data

How the results depend on the processing

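All 8 GBP genes kept their direction and their side of the threshold under each of 18 alternatives in which they were tested, 1 of which (a mean of at least 1 FPKM) was chosen after seeing the data. At a minimum of 5 FPKM in 3 libraries Gbp6 was not tested. With 1 library left out, the log2 fold change ran from 0.63 to 0.94 for Gbp2, from 2.11 to 2.51 for Gbp8 and from 1.34 to 1.88 for Gbp6. Quantile normalization moved the median of all genes by -0.11, and the 8 genes then lay between 0.72 and 2.12, at least 0.77 above that median.

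Counts over all genes moved more. At a minimum of 5 FPKM 1247 genes were higher, against 2249. Restricting the fit to the 4 libraries low in Y-linked RNA gave 1480 higher and 780 lower genes, against 1204 lower, and without 1 library between 780 (without dLAM library 2) and 1220 were lower. Of the genes on the pathway lists, 31 were higher and 8 lower as reported. Lower were 13 with median-of-ratios scaling, 4 in the same 4 libraries and 4 or 5 with any 1 library left out.

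Replicate numbers are shared between the groups in the titles, and deviations of same-numbered libraries correlated at 0.189, -0.147 and -0.089. With 3 libraries per group these values cannot decide whether the numbers pair the libraries, and the labels do not say. With a replicate block 1860 genes were higher and 999 lower, all 8 GBP genes passed (adjusted p up to 0.021), and 4 pathway genes were lower. Only dLAM library 1 correlated best with its own number. The cause of these shifts was not tested. Gsdmd changed sign, to -0.04, with median-of-ratios scaling. Depth limits Gbp8 most, with an estimated 37 fragments in its lowest library.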

Other observations

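The table holds further rows of the family, described here as values only and named after they were seen. Gbp2b (chromosome 3, 142594847 to 142619179), whose coding sequence is 82.5% identical to that of Gbp2, was at 1.99, 2.36 and 1.45 FPKM in dLAM and 0.155, 0.101 and 0.0832 in Mono-MΦ, a 17.1-fold ratio of means. The Mono-MΦ values correspond to an estimated 6, 4 and 4 fragments. Because no Mono-MΦ library reached 1 FPKM, Gbp2b entered the fit only through the group in which it was high, and no test of it is given. Its RefSeq promoter window holds the ISRE letters 128 to 137 bases before the start.

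Gbp11 (chromosome 5, 105323042 to 105346472), annotated as a polymorphic pseudogene, was at 0.597, 1.04 and 0.895 FPKM in dLAM and 0.191, 0.256 and 0.115 in Mono-MΦ. The pseudogene Gbp2-ps was listed at 0 in all 6 libraries. The promoter windows of IRG genes held the ISRE letters in 6 of 7 and the GAS letters in 5 of 7.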
